A study of Mus musculus with 35 samples.

Results

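The 9 genes described here are the mouse surfactant and alveolar type 2 cell genes Sftpa1, Sftpb, Sftpc, Sftpd, Napsa, Abca3, Lamp3, Lpcat1 and Slc34a2. They were taken by symbol from 19938 genes measured on 35 arrays of whole lung, and each had exactly 1 probe set. Every array held the RNA of 1 adult male C57BL/6J mouse, an inbred laboratory strain, and the study asked how hypercapnia, a raised CO2 level, alters lung injury from mechanical ventilation. High stretch ventilation lasted 3 h, at tidal volumes of 35 to 40 mL/kg and 30 to 35 breaths per minute. Its airway pressure peaked at 27 cmH2O and fell to 0 cmH2O at the end of expiration, and the inspired oxygen fraction was 0.75. It was run with an inspired CO2 fraction of 0.12 (high stretch hypercapnia, 10 arrays) or of 0 (high stretch normocapnia, 10 arrays). Low stretch ventilation used 10 mL/kg at 135 breaths per minute and an end-expiratory pressure of 2.0 cmH2O for the same 3 h. It was run with room air holding a CO2 fraction of 0.12 (low stretch hypercapnia, 5 arrays) or with plain room air (low stretch normocapnia, 5 arrays). The non-ventilated mice breathed room air spontaneously (5 arrays). The mice weighed 20 to 25 g, and all lungs were lavaged before removal. High and low stretch thus also differed in end-expiratory pressure, breathing rate and oxygen, which cannot be told apart from tidal volume.

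Alveolar type 2 cells are the epithelial cells that make pulmonary surfactant, the film of lipid and protein that lowers surface tension in the alveoli. They store it in lamellar bodies, release it when the lung is stretched and take much of it back for reuse. Surfactant proteins B and C are small hydrophobic proteins that help the lipids spread, whereas surfactant proteins A and D are collectins that bind microbes and take part in the handling of surfactant. Sftpa1, Sftpb, Sftpc and Sftpd encode these 4 proteins. Napsa encodes napsin A, an aspartic protease that takes part in cutting the surfactant protein B precursor. Abca3 encodes the transporter that moves phospholipid into lamellar bodies, and Lamp3 a membrane protein of those bodies. In humans, mature dendritic cells also make the Lamp3 protein. Lpcat1 encodes the acyltransferase that completes the main surfactant phospholipid by adding a fatty acid to lysophosphatidylcholine, and Slc34a2 a sodium-phosphate cotransporter of the type 2 cell surface. In whole lung RNA, fewer type 2 cells and less RNA per cell cannot be told apart.

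On GRCm38.p6 the genes lie on 7 chromosomes. Sftpa1 (chr14:41131788-41136373) and Sftpd (chr14:41172212-41185198) stand 35.8 kb apart, Sftpc lies elsewhere on chromosome 14 (chr14:70520941-70524081) and Sftpb on chromosome 6 (chr6:72304610-72314373). Napsa is at chr7:44572445-44586846, Abca3 at chr17:24351921-24410204, Lamp3 at chr16:19653381-19706365, Lpcat1 at chr13:73467231-73516420 and Slc34a2 at chr5:53049353-53071664. RefSeq promoter windows of 300 bases, from 250 before to 50 after the start, were at hand for 6 of the 9 genes. A pair of short motifs was searched on both strands, CTCAAG as the core bound by NKX2-1, the lung epithelial transcription factor, and TGTTTAC as a FOXA core. Sftpb and Sftpa1 are shown because they hold CTCAAG, Lamp3 because it holds TGTTTAC, and Lpcat1 and Slc34a2 because their signals changed most. Capitals mark the motifs, and each window is written 5′ to 3′ in the direction of its gene.
Sftpb (chr6:72304360-72304659, plus strand): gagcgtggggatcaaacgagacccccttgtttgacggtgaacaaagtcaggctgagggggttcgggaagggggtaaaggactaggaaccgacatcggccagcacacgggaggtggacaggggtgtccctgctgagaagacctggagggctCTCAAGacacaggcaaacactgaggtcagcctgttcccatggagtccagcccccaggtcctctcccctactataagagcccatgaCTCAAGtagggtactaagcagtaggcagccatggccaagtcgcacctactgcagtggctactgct
Sftpa1 (chr14:41131538-41131837, plus strand): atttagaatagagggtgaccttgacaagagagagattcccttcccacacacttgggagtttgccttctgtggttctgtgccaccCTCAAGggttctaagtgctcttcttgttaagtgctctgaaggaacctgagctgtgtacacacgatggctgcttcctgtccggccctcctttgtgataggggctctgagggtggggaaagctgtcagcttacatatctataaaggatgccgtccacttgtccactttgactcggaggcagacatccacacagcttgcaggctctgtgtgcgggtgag
Lamp3 (chr16:19706316-19706615, minus strand): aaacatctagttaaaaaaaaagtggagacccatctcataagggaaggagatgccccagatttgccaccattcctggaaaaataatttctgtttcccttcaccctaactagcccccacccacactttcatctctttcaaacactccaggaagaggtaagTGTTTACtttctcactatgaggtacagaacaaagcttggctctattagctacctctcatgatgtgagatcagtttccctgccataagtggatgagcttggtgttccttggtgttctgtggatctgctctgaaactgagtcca
Lpcat1 (chr13:73466981-73467280, plus strand): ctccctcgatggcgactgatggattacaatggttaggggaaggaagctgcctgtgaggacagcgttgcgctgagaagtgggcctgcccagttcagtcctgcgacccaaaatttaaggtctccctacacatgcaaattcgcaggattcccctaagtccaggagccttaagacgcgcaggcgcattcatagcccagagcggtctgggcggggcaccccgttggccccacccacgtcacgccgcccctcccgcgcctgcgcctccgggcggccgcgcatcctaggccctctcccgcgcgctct
Slc34a2 (chr5:53049103-53049402, plus strand): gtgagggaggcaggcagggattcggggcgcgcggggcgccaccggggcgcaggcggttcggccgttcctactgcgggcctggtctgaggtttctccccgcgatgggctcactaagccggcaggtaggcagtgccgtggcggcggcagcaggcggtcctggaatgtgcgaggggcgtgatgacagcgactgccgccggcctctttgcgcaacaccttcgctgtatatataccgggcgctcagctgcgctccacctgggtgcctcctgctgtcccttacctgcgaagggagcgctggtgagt
CTCAAG began 100 and 15 bases before the start of Sftpb and 166 bases before that of Sftpa1. TGTTTAC began 92 bases before the start of Lamp3. Of 32851 mouse windows of this length, 15.9% held CTCAAG and 3.65% held TGTTTAC. The windows of Lpcat1, Slc34a2 and Abca3 held neither run of letters.

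The values are deposited log2 signals. Array medians ran from 6.96 to 7.05 and the highest signal of an array from 14.42 to 14.80, and no array copied another. None of 15 other type 2 markers was below the median of all signals on every array. Non-ventilated replicate 5 stood apart in neutrophil genes: the mean signal of 10 neutrophil markers was 9.10 on it and 6.57 to 7.57 on the other non-ventilated arrays, so results against the non-ventilated group are also given without it. Changes are differences of group means from 1 limma fit over all 35 arrays, and passing means an adjusted p under 0.05, with Benjamini-Hochberg adjustment over all 19938 genes.

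The plot of signals by array gives all 9 genes. Sftpa1, Sftpb and Sftpc were nearly flat over the 35 arrays, Lamp3 moved a little, and Lpcat1, Slc34a2, Abca3 and Sftpd carried the larger shifts. Group means of Sftpc spanned 0.04 log2 units, those of Sftpa1 0.05 and those of Sftpb 0.07. The span was 0.14 in Napsa, 0.18 in Lamp3, 0.28 in Sftpd, 0.35 in Abca3, 0.40 in Slc34a2 and 0.76 in Lpcat1.

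**Figure D1:**
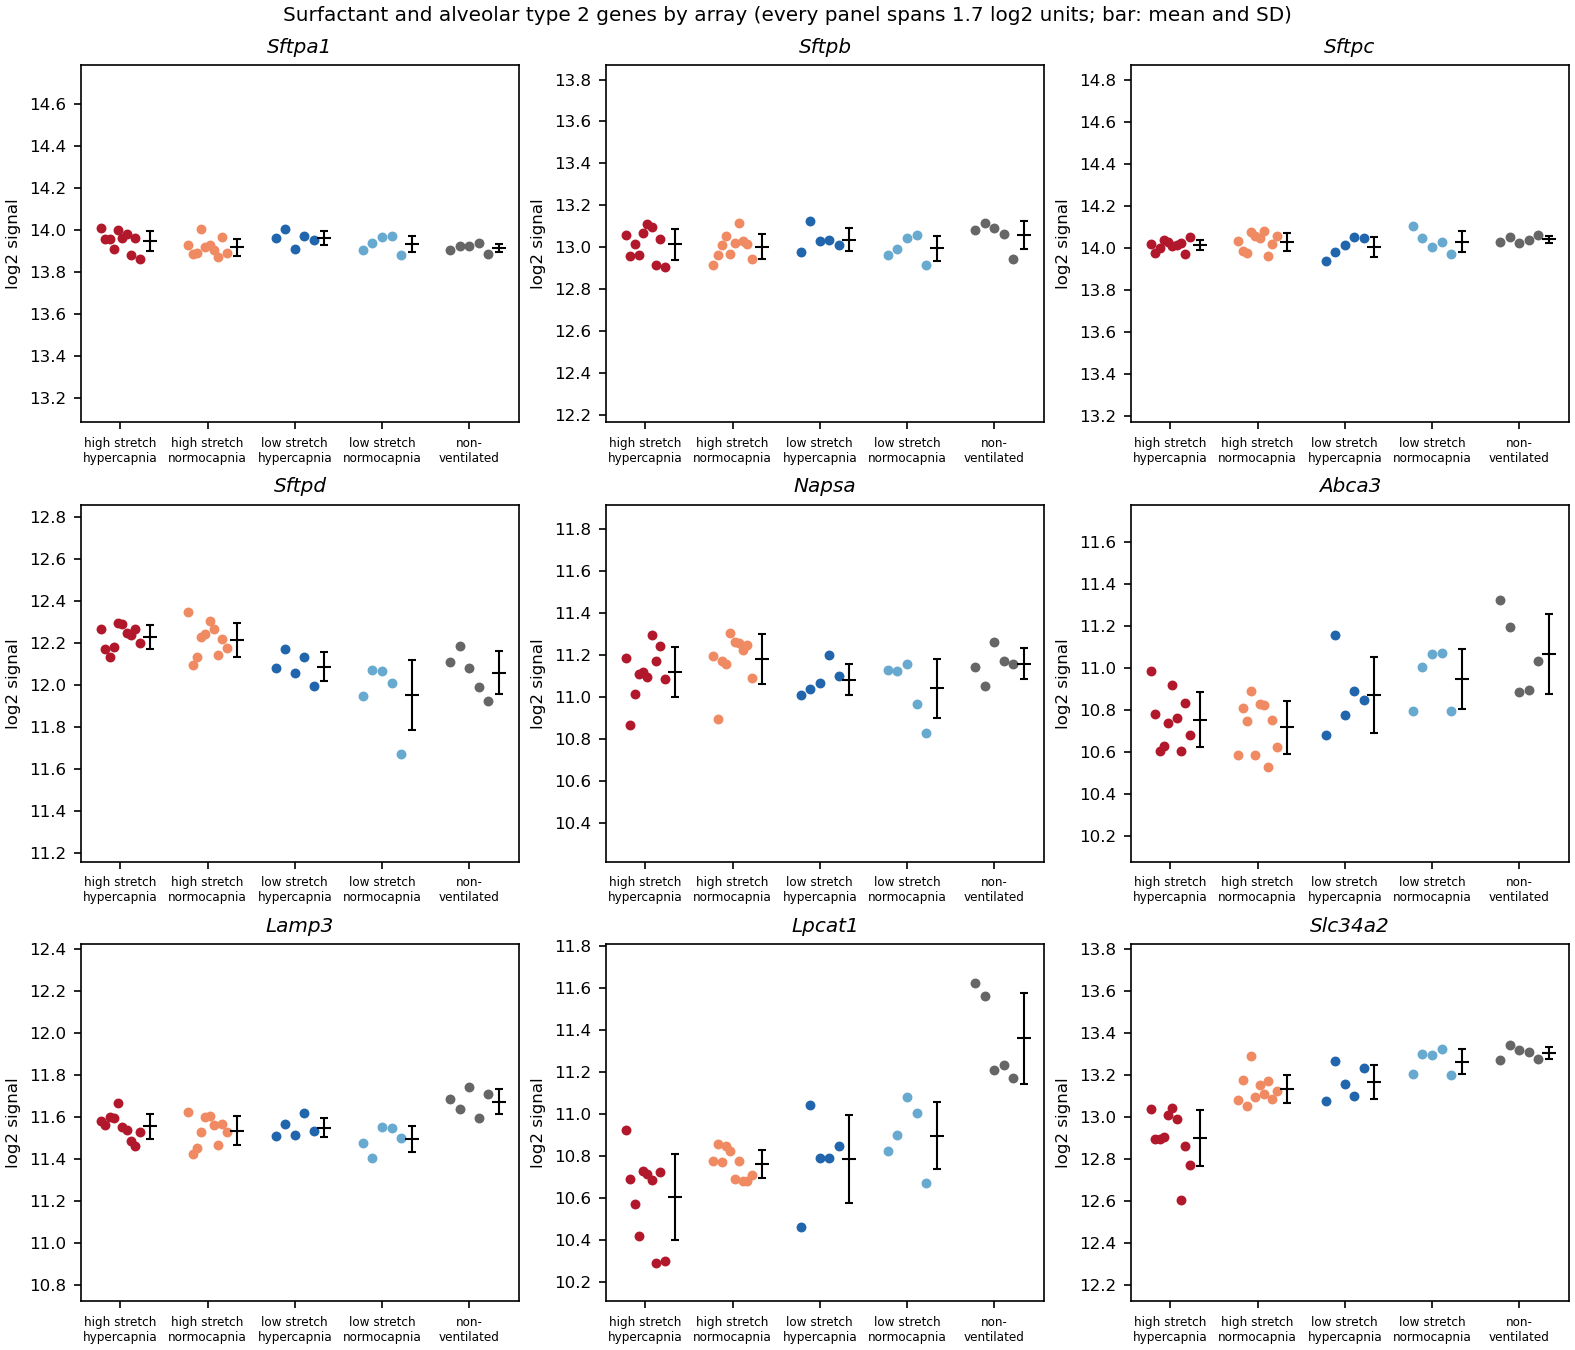
Log2 signal of each gene on each of the 35 arrays (points) with the mean and SD of each group (bars), all panels spanning the same number of log2 units. Lpcat1 is lower in every ventilated group than in the non-ventilated group, Slc34a2 is lowest in high stretch hypercapnia, Sftpd is higher in both high stretch groups than in low stretch normocapnia, and Sftpa1, Sftpb and Sftpc stay within narrow bands.

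Ventilation at low stretch without CO2, 3 h at a small tidal volume, was set against spontaneous breathing. Anything else that differed between these groups cannot be told apart from the ventilation. Lpcat1 and Lamp3 fell and the other 7 genes did not pass. In all, 11.8% of the 19938 genes passed in this comparison and 5.17% passed with a lower signal. The median change of the 9 genes was -0.11, against -0.01 over all genes.

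Lpcat1, the lipid remodelling enzyme, read 10.83, 10.90, 11.08, 11.01 and 10.67 on the low stretch normocapnia arrays, against 11.63, 11.56, 11.21, 11.23 and 11.17 on the non-ventilated arrays. All 5 ventilated arrays lay below every non-ventilated one. The change was -0.47 ± 0.11 (SE, n = 5 each), a 1.38-fold lower signal, with a limma adjusted p of 0.00256. Without non-ventilated replicate 5 it was -0.51 with a limma adjusted p of 0.00167.

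Lamp3, the lamellar body protein gene, read 11.48, 11.41, 11.55, 11.55 and 11.50 in low stretch normocapnia, against 11.69, 11.64, 11.74, 11.59 and 11.71 in non-ventilated lungs. These groups did not overlap either, but the step was small, -0.18 ± 0.05 (SE, n = 5 each), or 1.13-fold lower, with a limma adjusted p of 0.00894. Without non-ventilated replicate 5 it was -0.17 with a limma adjusted p of 0.0226, and with only these 10 arrays in the fit its limma adjusted p was 0.112. Among 9 measured dendritic cell markers 3 fell in the same comparison: Ccr7, the homing receptor of mature dendritic cells, by 0.59, the actin-bundling gene Fscn1 by 0.33 and the chemokine receptor gene Xcr1 by 0.31 on the log2 scale. The mean signal of that list ran from 7.07 to 7.28 in low stretch normocapnia, against 7.31 to 7.47 in non-ventilated lungs, and 3 of its genes stayed below the median of all signals on every array. Its part in the Lamp3 result was not tested.

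The signals of the 3 flat surfactant protein genes kept within tight bounds here. Those of Sftpa1 and Sftpc lay close to the top signals of the arrays, and saturation of their probe sets was not tested. Their intervals therefore bound the change in signal and may not bound that in RNA. The 95% interval of the change was -0.06 to 0.09 for Sftpa1, -0.16 to 0.03 for Sftpb and -0.09 to 0.06 for Sftpc. Abca3 was at -0.12 with an interval of -0.31 to 0.07, Napsa at -0.12 with -0.26 to 0.03, Sftpd at -0.11 with -0.23 to 0.02, and Slc34a2 at -0.04 with -0.17 to 0.09. Of 10 neutrophil markers 10 rose in the same comparison, with a median change of 3.14, and their mean signal ran from 9.90 to 10.70 in low stretch normocapnia, against 6.57 to 9.10 in non-ventilated lungs. All 9 B cell markers and 5 of 10 endothelial markers fell. None of the neutrophil, B cell or endothelial markers was below the median of all signals on every array. The part of these cells in the surfactant gene results was not tested.

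The other ventilated groups were set against the same 5 non-ventilated arrays, so these comparisons share their controls. The mean signal of the neutrophil markers ran from 9.54 to 11.08 in high stretch hypercapnia, from 9.79 to 10.93 in high stretch normocapnia and from 9.52 to 11.18 in low stretch hypercapnia, all above the non-ventilated arrays. In low stretch hypercapnia 1 of the 9 genes passed, in high stretch normocapnia 5 and in high stretch hypercapnia 5, where 15%, 36.3% and 33.8% of all genes passed. The shares of all genes that passed with a lower signal were 7.02%, 18.9% and 17.6% in these groups, and those with a higher signal were 17.4% in high stretch normocapnia and 16.3% in high stretch hypercapnia. Lpcat1 read 10.29, 10.69 and 10.92 (lowest, median and highest) in high stretch hypercapnia, 10.68, 10.77 and 10.86 in high stretch normocapnia, and 10.46, 11.04, 10.79, 10.79 and 10.85 on the low stretch hypercapnia arrays. No array of these groups reached the lowest non-ventilated value of 11.17. The change in Lpcat1 was -0.76 ± 0.09 in high stretch hypercapnia (SE, 1.69-fold lower, limma adjusted p 4.88e-08), -0.60 ± 0.09 in high stretch normocapnia (1.52-fold lower, limma adjusted p 2.56e-06) and -0.58 ± 0.11 in low stretch hypercapnia (1.49-fold lower, limma adjusted p 0.000178).

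Abca3, the lipid transporter of lamellar bodies, read 10.61, 10.75 and 10.99 (lowest, median and highest) in high stretch hypercapnia and 10.53, 10.75 and 10.89 in high stretch normocapnia, against 11.32, 11.19, 10.88, 10.89 and 11.03 on the non-ventilated arrays. In high stretch hypercapnia 8 of 10 arrays, and in high stretch normocapnia 9 of 10, lay below every non-ventilated array. It fell by 0.31 (limma adjusted p 0.00207) and by 0.35 (limma adjusted p 0.000593) on the log2 scale in these groups. In low stretch hypercapnia it was at -0.20 with a limma adjusted p of 0.167.

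Slc34a2 fell by 0.40 in high stretch hypercapnia (limma adjusted p 2.41e-07) and by 0.17 in high stretch normocapnia (limma adjusted p 0.0108) against non-ventilated lungs. In high stretch hypercapnia 10 of 10 arrays and in high stretch normocapnia 9 of 10 lay below every non-ventilated array. Lamp3 fell by 0.12 (limma adjusted p 0.0224) and by 0.14 (limma adjusted p 0.00632) in these groups. Sftpd moved the other way, 0.17 higher in high stretch hypercapnia (limma adjusted p 0.0127) and 0.16 higher in high stretch normocapnia (limma adjusted p 0.0204).

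Some of these calls rested on single arrays or on the fit. Without non-ventilated replicate 5 the number of the 9 genes that passed was 3 in high stretch hypercapnia, 4 in high stretch normocapnia and 1 in low stretch hypercapnia, where 6727, 7176 and 2742 of the 19938 genes passed. Sftpd then had a limma adjusted p of 0.0624 in high stretch hypercapnia and 0.0930 in high stretch normocapnia, where it was 0.0614 without non-ventilated replicate 4. After a second quantile normalization Sftpd was at 0.12 in high stretch hypercapnia (limma adjusted p 0.106) and at 0.10 in high stretch normocapnia (limma adjusted p 0.177). It did not pass with the replicate number as a block either (limma adjusted p 0.0507 and 0.0709), nor, in high stretch normocapnia, with array weights (0.0525). Slc34a2 in high stretch normocapnia was at -0.14 with the block and did not pass (limma adjusted p 0.0589). Lamp3 in high stretch hypercapnia had 0.0566 without non-ventilated replicate 5, 0.0750 without replicate 3, 0.0746 with only the compared groups in the fit and 0.105 with the block. In low stretch hypercapnia, Lamp3 was at -0.12 (limma adjusted p 0.0698) and passed with 0.0412 without non-ventilated replicate 4, and Abca3 passed with 0.0428 without low stretch hypercapnia replicate 2. Lpcat1 kept its call in all 4 comparisons with non-ventilated lungs whichever array was left out.

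**Figure D2:**
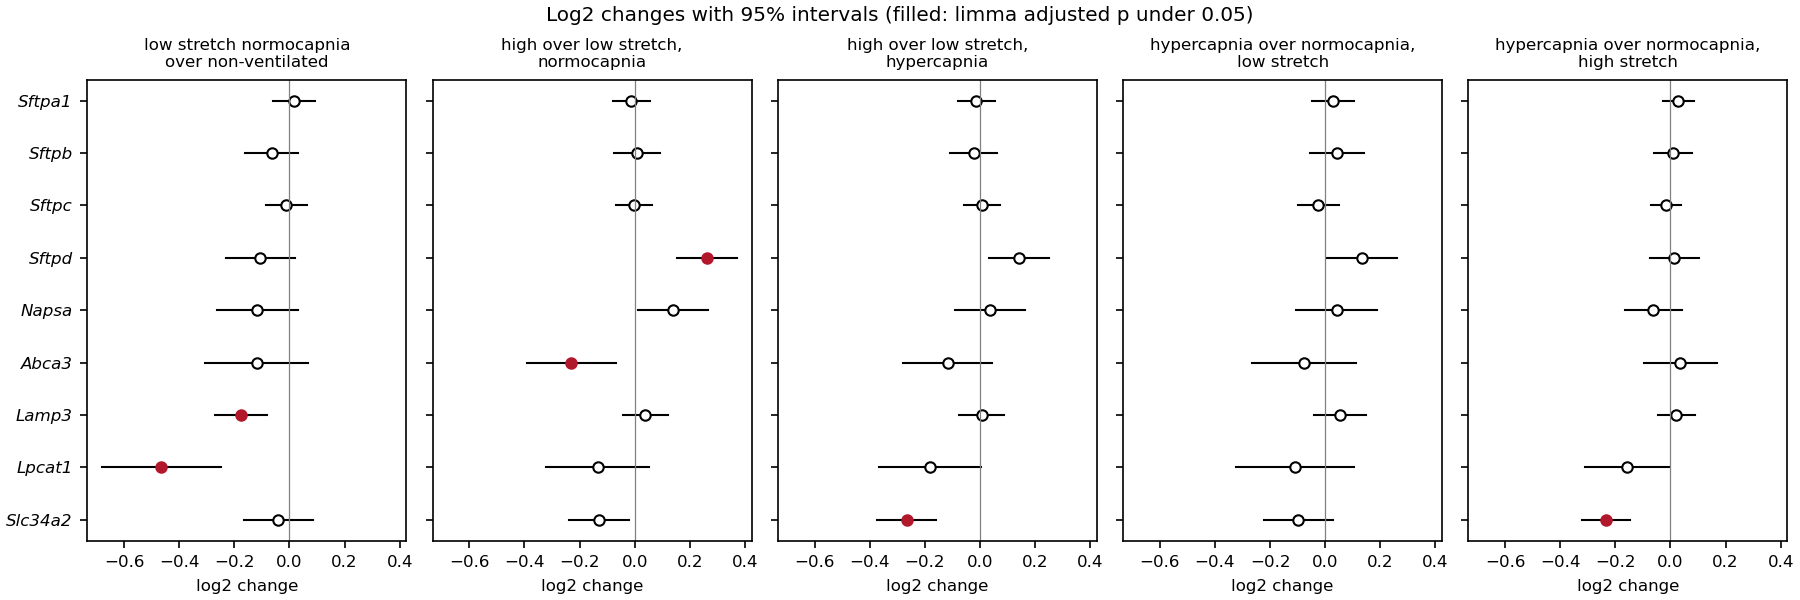
Log2 change of each gene in 5 comparisons (points) with 95% intervals (lines), filled where the limma adjusted p was under 0.05. Lpcat1 and Lamp3 are filled for low stretch normocapnia over non-ventilated lungs, Sftpd and Abca3 for high over low stretch in normocapnia, and Slc34a2 for high over low stretch in hypercapnia and for hypercapnia at high stretch.

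The injurious settings were set against the protective ones in normocapnia. Sftpd rose and Abca3 fell, and the other 7 genes did not pass. In this comparison 18.3% of all genes passed, 8.72% higher and 9.56% lower. That was 1739 higher and 1907 lower, or 1902 higher and 1413 lower with arrays centred on their medians, which turned the balance. The median change of the 9 genes was -0.002, against -0.02 over all genes.

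Sftpd, the collectin gene, read 12.09, 12.22 and 12.35 (lowest, median and highest) in high stretch normocapnia, against 11.94, 12.07, 12.07, 12.01 and 11.67 on the low stretch normocapnia arrays. The lowest of the 10 high stretch arrays was above the highest low stretch array, by a narrow gap. The change was 0.26 ± 0.05 (SE), a 1.20-fold higher signal, with a limma adjusted p of 0.000562. Low stretch normocapnia replicate 5 was the lowest array at 11.67, and with any 1 array left out the change stayed between 0.19 and 0.29 with a limma adjusted p of at most 0.00541. Sftpa1, the other collectin gene and its neighbour on chromosome 14, was at -0.01 with an interval of -0.08 to 0.05.

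Abca3 read 10.53, 10.75 and 10.89 in high stretch normocapnia (lowest, median and highest), against 10.80, 11.00, 11.07, 11.07 and 10.79 on the low stretch normocapnia arrays. The groups overlapped, with 6 of 10 high stretch arrays below every low stretch one. The change was -0.23 ± 0.08 (SE, 1.17-fold lower) with a limma adjusted p of 0.0396. The call was lost when low stretch normocapnia replicate 2, 3 or 4 or high stretch normocapnia replicate 1, 5, 8 or 10 was left out, where the limma adjusted p lay between 0.0615 and 0.133. It was also lost with the replicate number as a block (0.0676), over all probe sets (0.0589) and with arrays centred on their medians (0.0719).

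Slc34a2 was at -0.13 (limma adjusted p 0.0906) and Napsa at 0.14 (limma adjusted p 0.13). Both calls depended on the fit. Slc34a2 passed without high stretch normocapnia replicate 4 (limma adjusted p 0.0477), with array weights (0.0118) and among genes above the median level (0.0475). Napsa passed without high stretch normocapnia replicate 2 (limma adjusted p 0.0341) and with array weights (0.0300). Sftpc was at -0.002 with a 95% interval of -0.07 to 0.06, and Sftpb at 0.01 with an interval of -0.08 to 0.09. Lamp3 was at 0.04 and Lpcat1 at -0.13 with intervals that held 0. In the same comparison 7 of 9 B cell markers rose and 5 of 10 ciliated cell markers fell, and their part in the Sftpd and Abca3 results was not tested.

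In hypercapnia, high against low stretch moved 1 of the 9 genes past the test, Slc34a2, where 10.1% of all genes passed and 4.69% passed with a lower signal. Slc34a2 read 12.61, 12.90 and 13.04 (lowest, median and highest) in high stretch hypercapnia, against 13.08, 13.27, 13.16, 13.10 and 13.23 on the low stretch hypercapnia arrays. The groups did not overlap. The change was -0.27 ± 0.05 (SE, 1.20-fold lower) with a limma adjusted p of 0.000876. Sftpd was at 0.14 with a limma adjusted p of 0.0901, with 8 of 10 high stretch arrays above every low stretch array, and Abca3 was at -0.12 with 0.394. Sftpd passed among genes above the median level (limma adjusted p 0.0489).

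Hypercapnia was set against normocapnia at high stretch to show what CO2 changed during injurious ventilation. Slc34a2 was lower here too, in the same 10 high stretch hypercapnia arrays, and it was the only 1 of the 9 genes that passed, where 5.56% of all genes passed and 3.07% passed with a lower signal. Of all genes 497 were higher and 612 lower, or 354 and 721 with arrays centred on their medians. Slc34a2 read 12.61, 12.90 and 13.04 (lowest, median and highest) in high stretch hypercapnia, against 13.05, 13.12 and 13.29 in high stretch normocapnia. All 10 hypercapnia arrays lay below every normocapnia array. The change was -0.23 ± 0.04 (SE, n = 10 each), a 1.18-fold lower signal, with a limma adjusted p of 0.000833. The mean signal of the neutrophil markers overlapped fully between these groups, at 9.54 to 11.08 in high stretch hypercapnia and 9.79 to 10.93 in high stretch normocapnia. Over all 19938 genes 3489 had an unadjusted limma p under 0.05 in this comparison. Limma called 0 of the 10 general epithelial, 0 of the 15 type 1 and 0 of the 10 club cell markers in it, with an unadjusted p under 0.05 in 1, 1 and 0 of them. It called 0 of 10 ciliated cell markers, with an unadjusted p under 0.05 in 5 and a median change of 0.07. Of 10 fibroblast markers 1 fell, the transcription factor gene Tcf21 (-0.40, limma adjusted p 0.0109), with an unadjusted p under 0.05 in 5, and of 9 dendritic cell markers 1 fell, Xcr1 (-0.35, limma adjusted p 0.000604). The part of these cells in the Slc34a2 result was not tested.

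Lpcat1 was at -0.16 with a 95% interval of -0.31 to -0.005, not adjusted for the number of genes, and a limma adjusted p of 0.265. Its spread was wider in high stretch hypercapnia, with an SD of 0.21 against 0.07 in high stretch normocapnia, and 4 of 10 hypercapnia arrays lay below every normocapnia array. The intervals of the surfactant protein genes were -0.03 to 0.08 for Sftpa1, -0.06 to 0.08 for Sftpb, -0.07 to 0.04 for Sftpc and -0.08 to 0.10 for Sftpd. Abca3, Lamp3 and Napsa were at 0.04, 0.02 and -0.06.

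At low stretch, limma called 0 of the 9 genes for hypercapnia, where 0.115% of all genes passed. An unadjusted p under 0.05 was found for 1 of the 9, Sftpd, and for 1839 genes in all. Sftpd read 12.08, 12.17, 12.06, 12.13 and 11.99 in low stretch hypercapnia, against 11.94, 12.07, 12.07, 12.01 and 11.67 in low stretch normocapnia, and these groups overlapped. Its change was 0.13 (unadjusted limma p 0.0381, limma adjusted p 0.516). Slc34a2 was at -0.10 with an interval of -0.22 to 0.03.

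Whether CO2 acted differently at the 2 stretch settings was tested by the interaction, the CO2 change at high stretch minus that at low stretch. Limma called 0 of the 9 genes and 0% of all genes, with an unadjusted p under 0.05 in 0 of the 9 and in 893 genes in all. For Slc34a2 the interaction was -0.14 with a 95% interval of -0.29 to 0.02 and a limma adjusted p of 0.997. The fall of Slc34a2 with CO2 at high stretch was therefore not shown to differ from the change at low stretch.

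Across the 5 groups, the order of the means had few steps that passed between neighbours. From low to high, Slc34a2 ran from high stretch hypercapnia (12.90 ± 0.14, SD, n = 10) over high stretch normocapnia (13.14 ± 0.07, n = 10), low stretch hypercapnia (13.17 ± 0.08, n = 5) and low stretch normocapnia (13.27 ± 0.06, n = 5) to non-ventilated lungs (13.31 ± 0.03, n = 5), and the lowest step passed. Lpcat1 had the same order, at 10.60 ± 0.21, 10.76 ± 0.07, 10.79 ± 0.21, 10.90 ± 0.16 and 11.36 ± 0.22, and only its top step passed. Lamp3 ran from low stretch normocapnia (11.50 ± 0.06) over high stretch normocapnia (11.54 ± 0.07), low stretch hypercapnia (11.55 ± 0.05) and high stretch hypercapnia (11.56 ± 0.06) to non-ventilated lungs (11.67 ± 0.06), and only its top step passed.

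In the other 6 genes no step between neighbours passed. Sftpd was lowest in low stretch normocapnia (11.95 ± 0.17) and non-ventilated lungs (12.06 ± 0.10), then low stretch hypercapnia (12.09 ± 0.07), and highest in high stretch normocapnia (12.21 ± 0.08) and high stretch hypercapnia (12.23 ± 0.05). Abca3 was lowest in high stretch normocapnia (10.72 ± 0.13) and high stretch hypercapnia (10.75 ± 0.13), then low stretch hypercapnia (10.87 ± 0.18) and low stretch normocapnia (10.95 ± 0.14), and highest in non-ventilated lungs (11.07 ± 0.19). Napsa ran from 11.04 ± 0.14 in low stretch normocapnia to 11.18 ± 0.12 in high stretch normocapnia. All 35 arrays of Sftpc lay between 13.94 and 14.10, those of Sftpa1 between 13.86 and 14.01 and those of Sftpb between 12.91 and 13.13. The first pair of these ranges lies close to the top signals of the arrays, and whether those probe sets were saturated was not tested.

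How the genes varied between animals of 1 group was described by the correlation of their deviations from group means over the 35 arrays. Pearson's r had a median of 0.30 over the 36 pairs, ran from -0.03 to 0.77 and was positive in 33. Of the 36 pairs 15, all positive, had a permutation p, adjusted over the 36, under 0.05, and 14 by Spearman's rho. Abca3 and Lpcat1, a lipid transporter gene and a lipid enzyme gene, had the highest value, with r = 0.77, rho = 0.77 and a permutation adjusted p of 0.00036, the smallest that 100000 shuffles could give. Without the 2 arrays farthest from the median of Abca3 the value was 0.72. It was 0.82 within high stretch hypercapnia, 0.31 within high stretch normocapnia, and 0.89, 0.90 and 0.90 in low stretch hypercapnia, low stretch normocapnia and non-ventilated lungs.

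Sftpa1, Sftpb, Abca3, Lpcat1 and Slc34a2 formed the block of high values in the plot of correlations, from 0.51 to 0.77. Lpcat1 and Slc34a2 had r = 0.66 and rho = 0.58 (permutation adjusted p 0.00072 and 0.00252), and 0.57 without the 2 farthest arrays. Sftpa1 and Slc34a2 had r = 0.66 and rho = 0.53 (permutation adjusted p 0.00096 and 0.00925), and 0.58 without the 2 farthest arrays. Sftpa1 and Lpcat1 had r = 0.95 within high stretch hypercapnia and 0.19 within high stretch normocapnia. Sftpd and Lamp3 had -0.07 within high stretch hypercapnia and 0.95 within high stretch normocapnia. Over all 35 arrays Sftpd and Lamp3 had r = 0.28 and did not pass (permutation adjusted p 0.224). Both pairs were picked after the values were seen, and the differences between groups were not tested. Neither Sftpc nor Lamp3 had a pair that passed by r or by rho.

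**Figure D3:**
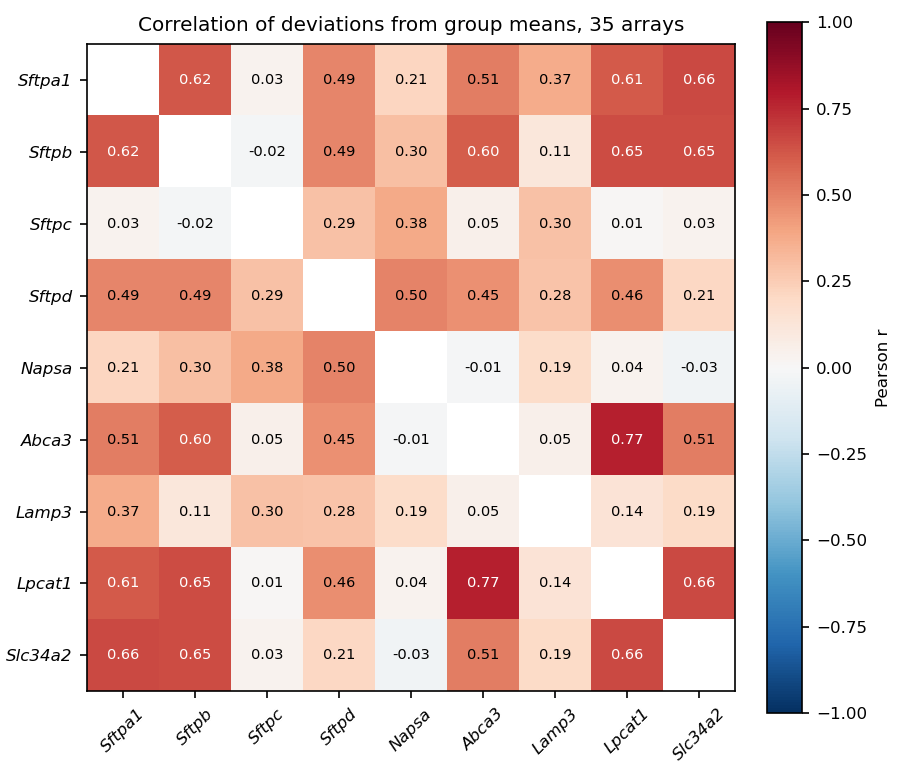
Pearson correlation of the deviations from group means for each pair of the 9 genes over 35 arrays (colour and printed value). Abca3 with Lpcat1 is highest at 0.77, the pairs among Sftpa1, Sftpb, Abca3, Lpcat1 and Slc34a2 are all at 0.51 or above, and Sftpc, Napsa and Lamp3 have low values with most other genes.

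All genes of an array share its RNA and its normalization. With each array centred on its median the median r was 0.46 and 21 pairs passed. Of the 36 pairs 10, or 27.8%, reached 0.5, against 4.39% of all pairs of 1 of the 9 genes with any other gene. In high stretch hypercapnia, replicates 8 and 10 had the highest mean neutrophil marker signals (10.57 and 11.08). They read lowest in Slc34a2 (12.61 and 12.77) and Lpcat1 (10.29 and 10.30). In high stretch normocapnia the highest were replicates 4 and 5 (10.75 and 10.93). These read 13.29 and 13.10 in Slc34a2 and 10.85 and 10.83 in Lpcat1, in group ranges of 13.05 to 13.29 and 10.68 to 10.86. The part of neutrophils in the correlations was not tested. The genes most like each one, by r over the same 35 deviations, were outside the set of 9. They were Agpat3 for Abca3 (0.89), Ppp1r14a for Lpcat1 (0.85), Cilk1 for Slc34a2 (0.83), Gpaa1 for Napsa (0.86) and Txndc5 for Sftpb (0.81). For Sftpa1 the highest was Atp8a1 (0.78), for Sftpc Scgb1a1 (0.73), for Lamp3 Acsl5 (0.73) and for Sftpd Atp11a (0.69). Each was the highest of 19937 other genes, and no shared function among them was tested. Col4a4 was among the 3 most alike for both Abca3 (0.83) and Lpcat1 (0.82).

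Transcription factors of the type 2 cell were measured by 12 genes. Of all genes 5.17% fell in low stretch normocapnia over non-ventilated lungs and 3.07% in high stretch hypercapnia over normocapnia. In low stretch normocapnia over non-ventilated lungs 0 rose and 4 fell, with a list median of -0.20: Etv5 by 0.41, Nfib by 0.32, Gata6 by 0.26 and Foxa2 by 0.25 on the log2 scale. In high stretch hypercapnia over normocapnia 4 fell and 0 rose, among them Etv5 (-0.37, limma adjusted p 0.00148), Cebpa (-0.28), Klf5 (-0.19) and Gata6 (-0.16). In high over low stretch 1 rose and 3 fell in normocapnia, and 1 rose and 5 fell in hypercapnia. The gene that rose was Klf5, by 0.60 in normocapnia and 0.36 in hypercapnia. Of all 19938 genes 1739 rose and 1907 fell in normocapnia, and 1082 rose and 935 fell in hypercapnia. The balance turned to 1902 and 1413 in normocapnia with median centring, and to 1063 and 1095 in hypercapnia after a second quantile normalization. Against non-ventilated lungs 9 of the 12 fell in high stretch hypercapnia, where Etv5 was at -1.02, and 8 fell in high stretch normocapnia, with Klf5 higher in both, where 17.6% and 18.9% of all genes were lower. Markers of other cells fell in the same 2 comparisons: 6 and 8 of 10 ciliated, 6 and 6 of 15 type 1, 5 and 6 of 10 endothelial and 4 and 6 of 10 fibroblast markers, in high stretch hypercapnia and in high stretch normocapnia. Their part in the counts of transcription factors was not tested. Nkx2-1, singled out after its values were seen because its motif was searched, was at -0.19 in low stretch normocapnia over non-ventilated lungs (limma adjusted p 0.0665) and at 0.09 in high stretch hypercapnia over normocapnia (0.395).

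Lipid synthesis genes, 16 in all, changed in both directions. In low stretch normocapnia over non-ventilated lungs 2 rose and 1 fell: the phosphatidate phosphatase gene Lpin1 (0.81, limma adjusted p 0.000228), the choline kinase gene Chka (0.36) and the fatty acid elongase gene Elovl1 (-0.51). Lpin1 was lower in high than in low stretch (-0.75 in normocapnia, limma adjusted p 5.95e-05) and higher in high stretch hypercapnia than in high stretch normocapnia (0.43, limma adjusted p 0.01). In high over low stretch in normocapnia 2 rose, Pgs1 (0.29) and the rate-limiting phosphatidylcholine synthesis gene Pcyt1a (0.15), and 2 fell, Lpin1 and Scd2 (-0.22). Hypercapnia at high stretch gave 1 higher, Lpin1, and 1 lower, the glycerol-phosphate acyltransferase gene Gpam (-0.38, limma adjusted p 0.000202). The list medians lay between -0.06 and 0.02 in these 3 comparisons. Shares of all 19938 genes that passed, in either direction, were 11.8%, 18.3% and 5.56%, in the order of the counts above. Whether the lipid list differed from all genes was not tested.

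Of 16 measured genes of surfactant processing, secretion and recycling, 5 rose and 0 fell in low stretch normocapnia over non-ventilated lungs. They included Nedd4l, a ubiquitin ligase gene (0.48, limma adjusted p 6.17e-07), Csf2rb and Csf2ra, which encode the receptor for GM-CSF (1.04 and 0.35), and the cathepsin gene Ctsh (0.29). Blood leukocytes also express the receptor genes, and the neutrophil markers rose in the same comparison, which was not tested as a source of these rises. In low stretch normocapnia over non-ventilated lungs 1322 of all 19938 genes rose and 1031 fell. After a second quantile normalization the balance turned, with 1242 higher and 1373 lower. In high over low stretch in normocapnia 2 of the 16 rose and 3 fell, where 1739 of all genes rose and 1907 fell. P2ry2, the receptor through which ATP triggers surfactant release, rose by 0.97 (limma adjusted p 3.22e-05) and Anxa7 by 0.36, while Nedd4l fell by 0.16 and Adgrf5, a receptor gene that limits the surfactant pool in mice, by 0.14. Limma called 0 of the 16 for hypercapnia at high stretch, where 5.56% of all genes passed. An unadjusted limma p under 0.05 was found in 2 of the 16 and in 3489 of all 19938 genes.

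Other type 2 markers, 15 measured, had 4 lower and 0 higher in low stretch normocapnia over non-ventilated lungs: the alarmin gene Il33 (-0.87), Bex2 (-0.49), the mucin gene Muc1 (-0.32) and the growth factor receptor gene Fgfr2 (-0.29). In high over low stretch in normocapnia Il33 rose by 1.33 and Mfsd2a, a lysophospholipid transporter gene, by 1.23, while Fgfr2 fell by 0.29. Hypercapnia at high stretch gave 1 higher, Fabp5 (0.42), and 1 lower, Lgi3 (-0.37). Of all genes 5.17% were lower in low stretch normocapnia over non-ventilated lungs, and 5.56% passed for hypercapnia at high stretch. Type 1 cell markers, 15 measured, had 1 higher (Gprc5a, 0.24) and 1 lower (Rtkn2, -0.60) in high over low stretch in normocapnia, whereas 8 of 10 general epithelial markers rose, led by Krt8 (1.62), Krt18 (1.44), Krt19 (1.22) and Elf3 (0.76). The surfactant genes and the general epithelial genes thus gave different counts in the same 15 arrays, 1 of 9 higher and 8 of 10 higher. The difference between the lists was not tested. In high over low stretch in normocapnia 8.72% of all genes were higher and 9.56% lower.

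**Figure D4:**
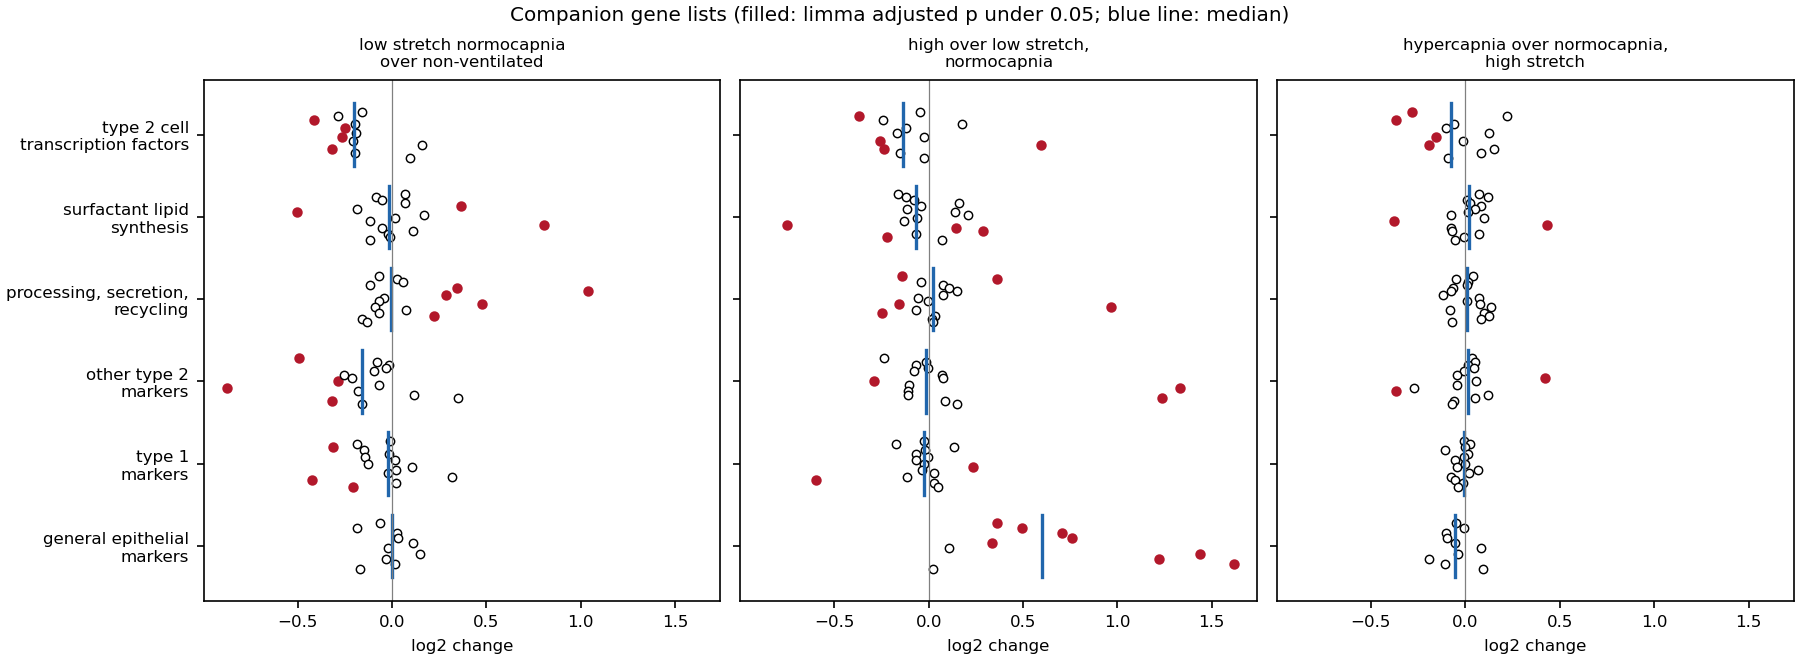
Log2 change of each gene of 6 related lists (points, filled where the limma adjusted p was under 0.05) with the list median (blue line) in 3 comparisons. Type 2 transcription factors lie mostly below 0 for low stretch normocapnia over non-ventilated lungs, and general epithelial markers lie above 0 for high over low stretch in normocapnia.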

How the data were processed

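RNA of 35 lavaged mouse lungs was hybridised to 1 Affymetrix array per animal after whole-transcript labelling, per the labels' protocols. The authors deposited log2 signals. The submitters' processing notes list RMA, Partek and Affymetrix Expression Console, with the version and role of each not given in the sources used here. Of 35557 probe sets, 21789 had 1 gene symbol, 1621 had several and 12147 were not in the probe gene table used here. The brightest probe set by mean over all arrays stood for its gene, which left 19938 genes, with no filter on level. The group model was fitted in limma 3.58.1 (R 4.3.3; lmFit, eBayes, two-sided), with Benjamini-Hochberg adjustment within each comparison over all genes. Errors are limma SE for changes and SD for groups. Correlation p-values come from 100000 shuffles of arrays within groups (numpy 2.4.6). The fit was tested on simulated data.

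The 9 genes and all lists were chosen with earlier results of these data known. Of each list, up to 4 genes with the smallest p among those that passed are named. Precision is limited by the number of arrays. The limma p-values set each change against a spread between arrays that was estimated over all 5 groups and drawn in part from all genes. Labels give no batch or pairing. Same-numbered arrays of different groups had a median correlation of deviations of 0.02 over 55 pairs, 17 of them over 0.1. For differently numbered arrays the median was -0.008 over 420 pairs, 123 of them over 0.1. The numbers thus showed no sign of pairing, but such a check cannot exclude it. The fit was repeated on the arrays of each comparison alone, with a block for replicate number, with array weights, trend and robust options, genes above the median level, the mean of a gene's probe sets, all probe sets, arrays centred on their medians, quantile normalization applied again, and each array left out in turn.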

Additional observations from a re-analysis of the deposited data

Results flagged for a closer look

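Within groups, 2 of the 45 combinations of gene and group had an array far from the others by Dixon's criterion, which chance alone meets in about 1 of 20 groups. Napsa read 10.9 on high stretch normocapnia replicate 2, below 11.09 to 11.30 on the other 9 arrays of that group. Slc34a2 read 13.3 on high stretch normocapnia replicate 4, above 13.05 to 13.18 on the other 9 arrays. Without these arrays Napsa passed for high over low stretch in normocapnia (0.17, limma adjusted p 0.0341) and so did Slc34a2 (-0.15, limma adjusted p 0.0477).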

How the results depend on the processing

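Of 17 changes that passed, 11 kept their call under all 9 other settings and with any 1 array left out, 6 lost it somewhere and 0 changed sign. The number of genes of the 9 that passed was 1 in place of 2 for low stretch normocapnia over non-ventilated lungs with only the compared groups. For high over low stretch in normocapnia it was 1 with the replicate block, over all probe sets or with median centring, 4 with array weights, and 1 to 3 without 1 array, against 2. For high over low stretch in hypercapnia it was 2 among genes above the median level, against 1. For low stretch hypercapnia over non-ventilated lungs it was 2 with the trend and robust options, above the median level or after a second quantile normalization, and 1 to 2 without 1 array, against 1. For high stretch over non-ventilated lungs it was 3 with the replicate block in both CO2 groups and 4 after a second quantile normalization in both, with array weights in normocapnia and with only the compared groups in hypercapnia, against 5, and without 1 array 4 to 5 in normocapnia and 3 to 5 in hypercapnia. Pairing by replicate number was neither shown nor excluded, so the block is given as a check. Over all genes, counts moved by over 1.5 times with only the compared groups (1385 against 2353 for low stretch normocapnia and 1429 against 2993 for low stretch hypercapnia, both over non-ventilated lungs), with array weights (2052 against 1109 for hypercapnia at high stretch) and, in the hypercapnia groups compared by stretch, with the replicate block (1269 against 2017) or without low stretch hypercapnia replicate 5 (1278). For hypercapnia at low stretch the limma counts ran from 0 with only the compared groups, where 1594 genes had an unadjusted p under 0.05, to 78 among genes above the median level, against 23.

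Sign changes occurred only in changes that had not passed, at a size of at most 0.0501. For high over low stretch in normocapnia they were Sftpa1 (0.00743 with median centring, 0.0126 after quantile normalization), Sftpb (-0.00284 with the replicate block), Sftpc (0.0189 centred) and Lamp3 (-0.00555 quantile). In hypercapnia they were Sftpa1 (0.000246 block), Sftpc (-0.000145 array weights), Napsa (-0.0117 block) and Lamp3 (-0.0324 quantile). For hypercapnia at high stretch they were Sftpa1 (-0.00309 quantile), Sftpb (-0.00583 centred, -0.00961 quantile), Sftpc (0.0132 quantile) and Sftpd (-0.00275 centred). For the interaction they were Sftpa1 (-0.00900 centred, -0.0501 quantile) and Sftpc (-0.000422 centred), and for high stretch normocapnia over non-ventilated lungs Napsa (-0.0249 block, -0.0321 quantile).

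Without 1 array, the range crossed 0 for Sftpc (-0.0287 to 0.00456) in low stretch normocapnia over non-ventilated lungs and for Napsa (-0.0115 to 0.0705) for hypercapnia at low stretch. It did for Sftpb (-0.0112 to 0.0247) and Sftpc (-0.017 to 0.0163) in high over low stretch in normocapnia, for Sftpc (-0.00977 to 0.0191) and Lamp3 (-0.00521 to 0.0245) in hypercapnia, and for Sftpb (-0.000323 to 0.0231) for hypercapnia at high stretch. For the interaction it did for Sftpa1 (-0.0121 to 0.0128), Sftpc (-0.00904 to 0.0242) and Lpcat1 (-0.129 to 0.0172). Against non-ventilated lungs it did for Sftpd in low stretch hypercapnia (-0.00502 to 0.0609) and for Sftpa1 (-0.00599 to 0.00933) and Napsa (-0.00332 to 0.0543) in high stretch normocapnia. The cause of these shifts was not tested.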
